A study of Homo sapiens with 16 samples.

Results

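The potassium channel genes examined here are the RefSeq protein-coding genes of GRCh38 whose symbol starts with KCN, without KCNRG, KCNQ1 and any symbol that starts with KCNQ1. On chromosomes 1 to 22 and X they number 94 of 19974 protein-coding genes. ChIP-seq, in which an antibody pulls down chromatin and the attached DNA is sequenced, had been run in 2 human cell lines with 2 biological replicates per target. The libraries are JARID2 in HepG2, a hepatocellular carcinoma line, and JARID2, EZH2 and H3K27me3 in THLE-2, an immortalised liver epithelial line used as the non-tumour line. Each of these 8 immunoprecipitated (IP) libraries was compared by the authors with its own input, sonicated chromatin that was not precipitated. EZH2 and H3K27me3 of HepG2 were not analysed here. Each line is a single cell line, so a difference between HepG2 and THLE-2 is one between these lines and not between tumour and normal liver as such.

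Potassium channels let potassium ions leave or enter the cell and so set its resting voltage and end its electrical impulses. Pore subunits come in classes that open with voltage, with intracellular calcium or sodium, by inward rectification, or as background (tandem-pore) channels, and auxiliary subunits change how the pores open. Polycomb repressive complex 2 places the repressive mark H3K27me3 on histone H3. EZH2 is its catalytic subunit, and JARID2 is a partner that helps it bind chromatin. Polycomb is known to hold genes of other lineages silent, among them neuronal and muscle genes in epithelial cells, and often sits at promoters rich in CG dinucleotides.

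Promoters of the channel genes range from dense to nearly free of CG. The 250 bases before the start site of 7 of them are printed 5′ to 3′ from RefSeq (GRCh38.p14), with each CG in capitals. CG reads the same on the other strand. The first 4 are the genes best ranked for EZH2 among those in RefSeq's promoter table with an EZH2 peak of both replicates over these bases. They are KCNH2 (chr7:150978322-150978571, minus strand), the heart's rapid delayed rectifier, KCNN2 (chr5:114361820-114362069, plus strand), a small-conductance calcium-activated channel, KCNA7 (chr19:49072700-49072949, minus strand), a voltage-gated channel of muscle, and KCNK4 (chr11:64291052-64291301, plus strand), a mechanically gated tandem-pore channel.
KCNH2: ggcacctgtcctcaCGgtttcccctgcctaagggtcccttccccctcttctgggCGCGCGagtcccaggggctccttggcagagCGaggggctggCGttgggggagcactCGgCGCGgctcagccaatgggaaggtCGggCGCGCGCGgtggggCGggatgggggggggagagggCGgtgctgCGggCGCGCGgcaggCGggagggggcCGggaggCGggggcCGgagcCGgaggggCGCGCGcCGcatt
KCNN2: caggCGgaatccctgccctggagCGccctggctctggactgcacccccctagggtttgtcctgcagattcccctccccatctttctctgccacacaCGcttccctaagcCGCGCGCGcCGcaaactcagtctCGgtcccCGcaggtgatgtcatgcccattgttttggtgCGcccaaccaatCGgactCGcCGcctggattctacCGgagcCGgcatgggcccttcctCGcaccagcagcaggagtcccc
KCNA7: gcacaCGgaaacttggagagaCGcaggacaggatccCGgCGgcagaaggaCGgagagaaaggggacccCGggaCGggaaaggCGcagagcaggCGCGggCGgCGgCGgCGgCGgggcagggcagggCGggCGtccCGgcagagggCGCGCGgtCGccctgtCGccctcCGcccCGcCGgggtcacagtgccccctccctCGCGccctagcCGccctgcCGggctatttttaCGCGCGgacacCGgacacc
KCNK4: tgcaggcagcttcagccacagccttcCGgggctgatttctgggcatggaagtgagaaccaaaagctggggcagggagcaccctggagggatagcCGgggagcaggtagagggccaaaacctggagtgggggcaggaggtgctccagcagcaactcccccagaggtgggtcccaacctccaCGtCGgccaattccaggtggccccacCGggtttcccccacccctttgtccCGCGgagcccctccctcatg
KCNA7 has 34 CGs, KCNH2 29, KCNN2 17 and KCNK4 7, so promoters with EZH2 differ widely. The KCNN2 start lies 306 kb inside the annotated gene, and the EZH2 peaks over it have the authors' fold enrichments, a ratio of IP over input, of 5.31 and 5.58 in replicates 1 and 2.

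Another 3 promoters belong to the best ranked genes with an H3K27me3 peak of both replicates at a gene end and no EZH2 peak at either end. They are KCNMB1 (chr5:170389368-170389617, minus strand), an auxiliary subunit of the large-conductance calcium-activated channel of smooth muscle, KCNN3 (chr1:154870282-154870531, minus strand), a small-conductance calcium-activated channel, and KCNK18 (chr10:117197239-117197488, plus strand), a tandem-pore channel of sensory neurons.
KCNMB1: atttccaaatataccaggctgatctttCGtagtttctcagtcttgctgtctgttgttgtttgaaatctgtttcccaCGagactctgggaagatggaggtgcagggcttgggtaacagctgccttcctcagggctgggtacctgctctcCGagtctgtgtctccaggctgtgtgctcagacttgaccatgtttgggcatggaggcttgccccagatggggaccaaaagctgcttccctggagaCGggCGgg
KCNN3: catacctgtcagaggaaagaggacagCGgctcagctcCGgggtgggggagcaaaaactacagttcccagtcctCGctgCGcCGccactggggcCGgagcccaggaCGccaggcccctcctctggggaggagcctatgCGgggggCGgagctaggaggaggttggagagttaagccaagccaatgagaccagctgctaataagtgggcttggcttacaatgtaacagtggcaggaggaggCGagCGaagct
KCNK18: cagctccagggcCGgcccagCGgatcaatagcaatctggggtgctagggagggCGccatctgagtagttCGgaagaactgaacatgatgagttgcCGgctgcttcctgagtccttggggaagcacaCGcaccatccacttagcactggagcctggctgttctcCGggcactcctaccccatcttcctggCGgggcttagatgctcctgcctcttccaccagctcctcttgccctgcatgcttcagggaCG
In these 3 genes the end marked by H3K27me3 in both replicates was the one opposite the start. Over the printed bases, KCNMB1 had H3K27me3 in replicate 2 alone, and KCNN3 and KCNK18 had it in neither replicate. KCNN3 has 11 CGs, KCNK18 has 9 and KCNMB1 has 5. At least 1 CG is present in 96.9% of 15813 protein-coding promoters of this length, with a median of 17.

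The libraries differed in depth and yield. IP libraries held between 7.95 and 14.6 M filtered tags for JARID2, 29.6 and 32.4 M for EZH2, and 39 and 38.1 M for H3K27me3. The authors deposited 15738 and 4090 peaks for HepG2 JARID2, 5356 and 5532 for THLE-2 JARID2, 2112 and 3690 for EZH2, and 46198 and 90524 for H3K27me3. The median false discovery rate was 100% in 5 of the 8 lists, among them both EZH2 and both H3K27me3 lists, and all EZH2 peaks at channel genes carry 100%. In HepG2 JARID2, replicate 2 stands apart from replicate 1. In H3K27me3, replicate 2 marks many gene starts that replicate 1 does not, so the end that holds H3K27me3 is given per replicate. The libraries are of bulk chromatin, so a peak in all cells and a stronger one in some of them cannot be told apart. A gene without a deposited peak is one where none was called, which does not show that it is unbound.

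A peak was assigned to a gene when it lay within 2 kb of either annotated gene end. EZH2 was found at 25 of 94 channel genes in replicate 1 (26.6%, Wilson 95% interval 18.7% to 36.3%), against 5.92% of all protein-coding genes. In replicate 2 it was found at 35 (37.2%, 28.1% to 47.3%), against 6.54%. All 25 genes of replicate 1 were also called in replicate 2, against 4.88% of all protein-coding genes called in both. H3K27me3 was found at 21 channel genes in replicate 1 (22.3%, 15.1% to 31.8%), against 7.7% of all genes. Replicate 2 marked 47 (50%, 40.1% to 59.9%), against 19.1%, and 20 genes were marked in both replicates (21.3%), against 6.75%. Each of these shares is above that of all genes, and the lower interval bound is above it too. The intervals cover counting error over genes only, and genes are not replicates.

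JARID2 in HepG2 lay at 28 channel genes in replicate 1 (29.8%, 21.5% to 39.7%), against 22.5% of all genes, a share inside the interval. Replicate 2 had none of the 94 (upper bound 3.93%), against 0.716%, and no channel gene was called in both replicates, against 0.165%. JARID2 in THLE-2 lay at 4 channel genes in replicate 1 (4.26%), against 4.21%, and at 2 in replicate 2 (2.13%), against 4.38%. KCNT1 alone was called in both THLE-2 JARID2 replicates (1.06%), against 0.355% of all genes. In each of the 4 JARID2 libraries the share of all genes lies inside the interval of the channel genes. In all, 30 of the 94 genes (31.9%) lacked an assigned peak in every one of the 8 libraries, against 56.6% of all protein-coding genes.

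**Figure D1:**
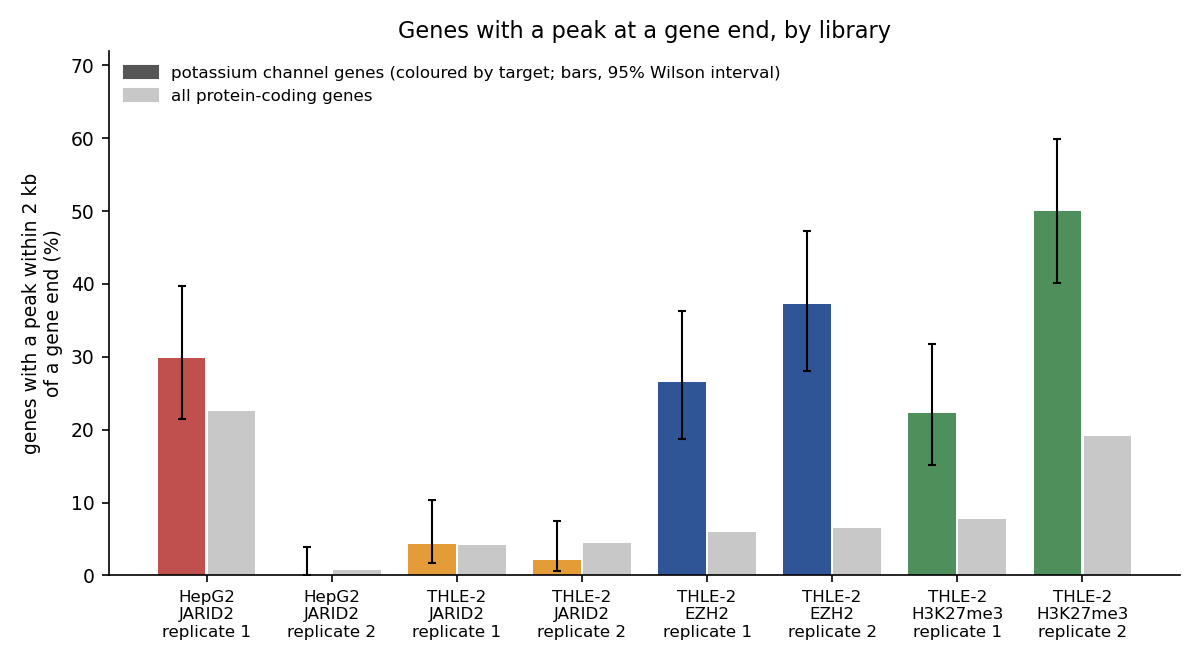
Percent of genes that have an assigned peak (within 2 kb of an end) in each library. Coloured bars are the 94 potassium channel genes with Wilson 95% intervals, and grey bars are all 19974 protein-coding genes. EZH2 and H3K27me3 bars of the channel genes exceed the grey bars in both replicates, while the JARID2 bars lie near them.

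Among the pore subunits opened by voltage (KCNA without KCNAB, KCNB, KCNC, KCND, KCNH and KCNQ, classed here by symbol), 12 of 29 had EZH2 in both replicates. The share was 41.4%, against 4.88% of all protein-coding genes. KCNH2, with peaks at chr7:150976171-150980968 and chr7:150973507-150981076 over its start, had folds of 11.56 and 8.28 in replicates 1 and 2, and its replicate 2 peak was the widest among the 25 genes at 7570 bp. KCNH3, a brain relative of KCNH2, had 7.74 and 5.97. KCNQ3, which helps form the current that damps neuronal firing, had 7.02 and 5.75, and KCNQ5 had 4.97 in replicate 2 alone.

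Among the Shaker-type KCNA genes, EZH2 was called in both replicates at 4 of 8 pore genes (50%), against 4.88% of all protein-coding genes. It was called at 0 of 3 KCNAB genes, which encode cytoplasmic beta subunits, and with so few genes the difference was not tested. KCNA7 had folds of 9.65 and 7.83. KCNA3, the channel of T lymphocytes, had 8.84 and 6.08. KCNA6 had 5.21 and 4.81, and KCNA4, an inactivating channel of heart and brain, had 5.59 and 3.8, the last being the lowest replicate 2 value of the 25 genes. KCNA2 had its EZH2 peaks inside the gene, over a further annotated start (chr1:110605267-110609350 in replicate 1), with folds of 10.28 and 8.58, and therefore is not among the 25. KCNA1 had a peak in replicate 2 alone (5.15).

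Among the KCNC genes, the fast channels of rapidly firing neurons, KCNC1 had EZH2 folds of 7.39 and 5.16. KCNC2 and KCNC4 were called in replicate 2 alone, with 7.1 and 5.31. Of the other voltage-gated pores, KCND3 of the transient outward current had 6.43 and 4.73 and KCNB2, a delayed rectifier, had 5.49 and 4.11. The silent subunits (KCNF, KCNG, KCNS and KCNV) form channels only together with KCNB pores. They had EZH2 in both replicates at 1 of 10 genes (10%) and in replicate 2 at 4 (40%), against 4.88% and 6.54% of all genes. KCNG3 was the gene found in both, with folds of 5.7 and 4.23 at its start, in peaks shared with MTA3, and a stronger replicate 2 peak of 6.34 at its other end. KCNF1 (6.97), KCNG1 (4.6) and KCNS2 (3.77) were called in replicate 2 alone.

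The calcium- or sodium-activated pores are grouped here by symbol (KCNMA, KCNN, KCNT and KCNU). KCNU was placed with them by symbol alone, and its opening by calcium or sodium is not claimed. Of these 8 genes, 3 had EZH2 in both replicates (37.5%), against 4.88% of all protein-coding genes. KCNN2 had folds of 8.87 and 8.35 at its annotated start (chr5:114054416-114057262 and chr5:114054136-114057084). KCNMA1, the large-conductance calcium-activated channel, had 6.88 and 7.21. KCNN1 had 7.47 and 5.06. KCNN3 and KCNN4 of the same subfamily had no EZH2 peak at an end.

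Tandem-pore genes had EZH2 in both replicates at 7 of 15 (46.7%), against 4.88% of all protein-coding genes. KCNK12 had 11.6 and 6.41 and its close relative KCNK13 6.4 and 4.48. KCNK4 had 8.37 and 7.72, in peaks that also reach the neighbour GPR137, KCNK9 7.39 and 6.7, and KCNK10, like KCNK4 a channel gated by stretch, 7.24 and 6.09. KCNK16 and KCNK17, neighbours known from the pancreas, share 1 peak of 6.94 and 5.84, so the 25 genes rest on 24 separate EZH2 peaks in replicate 1. No tandem-pore gene was added by replicate 2.

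Inward rectifiers had a lower EZH2 share than tandem-pore genes. EZH2 was called in both replicates at 2 of 16 (12.5%), still above the 4.88% of all protein-coding genes. The 2 are KCNJ4 of brain and heart (9.77 and 8.01) and KCNJ8, the pore of the vascular ATP-sensitive channel (7.84 and 6.59). KCNJ3, a G-protein-gated channel (4.75), and KCNJ12 (4.2) were called in replicate 2 alone. KCNJ12 has near-identical copies in the genome, and the headers state that uniquely mapped reads were used, so its value is uncertain. In 8 of the 16 KCNJ genes no library had a peak at a gene end, a share below the 56.6% of all protein-coding genes.

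None of the 16 auxiliary genes (KCNAB, KCNE, KCNIP and KCNMB) had an EZH2 peak at a gene end in either replicate, against 25 of 78 pore and silent genes in both replicates (32.1%) and 35 in replicate 2 (44.9%). Among all protein-coding genes the shares were 5.92% and 6.54% in replicates 1 and 2. At such shares few of 16 genes would be called, so this count cannot tell whether the absence is particular to auxiliary genes. This grouping was made after the values were seen. H3K27me3 did not follow it, with 4 of 16 auxiliary genes (25%) and 16 of 78 others (20.5%) marked in both replicates. The difference between the kinds of subunit was not tested.

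**Figure D2:**
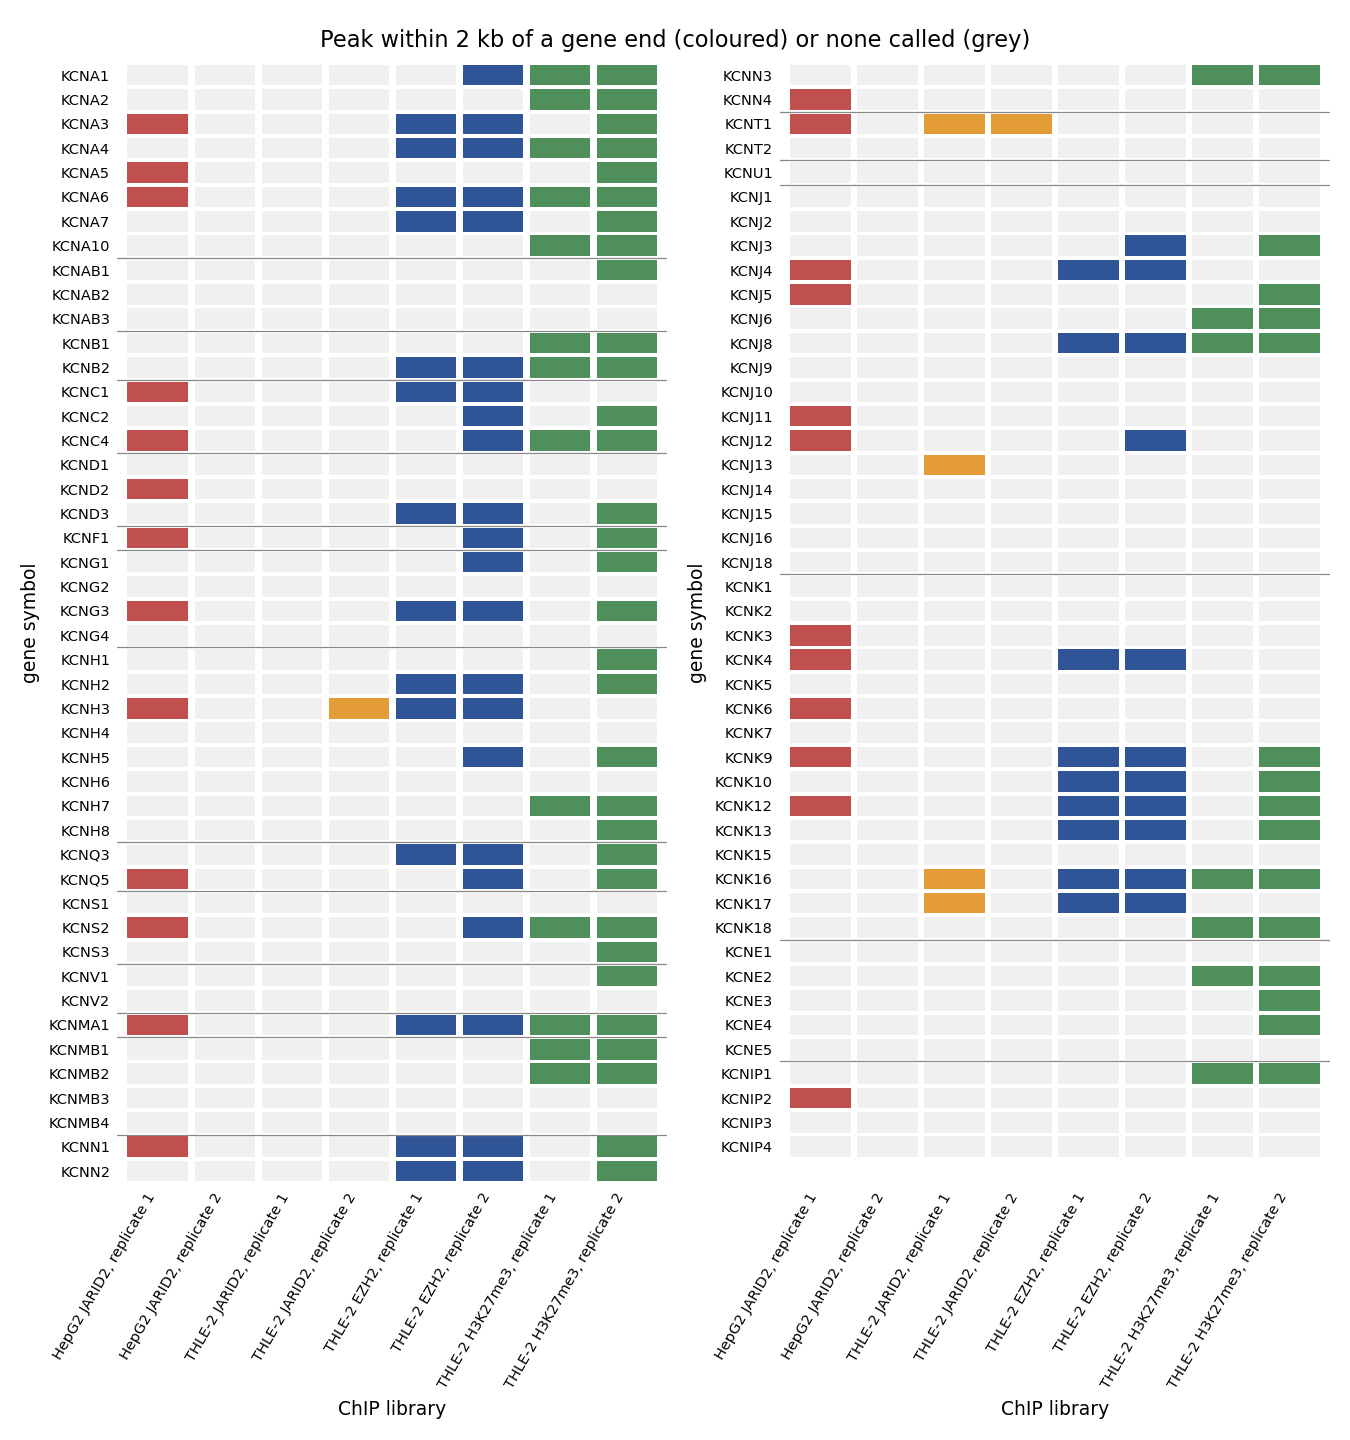
The potassium channel genes reported by name (rows, grouped by symbol prefix, in 2 columns) by library (8 columns), coloured where a peak was assigned and grey where none was called. EZH2 (blue) is seen across pore subunits and is absent from the KCNAB, KCNE, KCNIP and KCNMB rows, and HepG2 JARID2 replicate 2 is empty.

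EZH2 peaks at the channel genes were broad and lay at the start. Over the 25 genes, fold enrichment had a median of 7.39 and a lowest value of 5.21 in replicate 1, and a median of 6.08 and a lowest value of 3.8 in replicate 2. EZH2 peaks at the ends of all protein-coding genes had medians of 7.655 and 5.84. Median widths were 4026 and 3901 bp, against 3768 and 3518 bp for all genes. These medians are close, but the sets are unlike. The 25 genes were called in both replicates and enter with their strongest peak. The comparison holds every EZH2 peak at a gene end, 1136 and 1268 in replicates 1 and 2, those of channel genes included. The peaks of both replicates overlapped at all 25 genes, and at 20 both summits lay within 1 kb of the gene end.

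**Figure D3:**
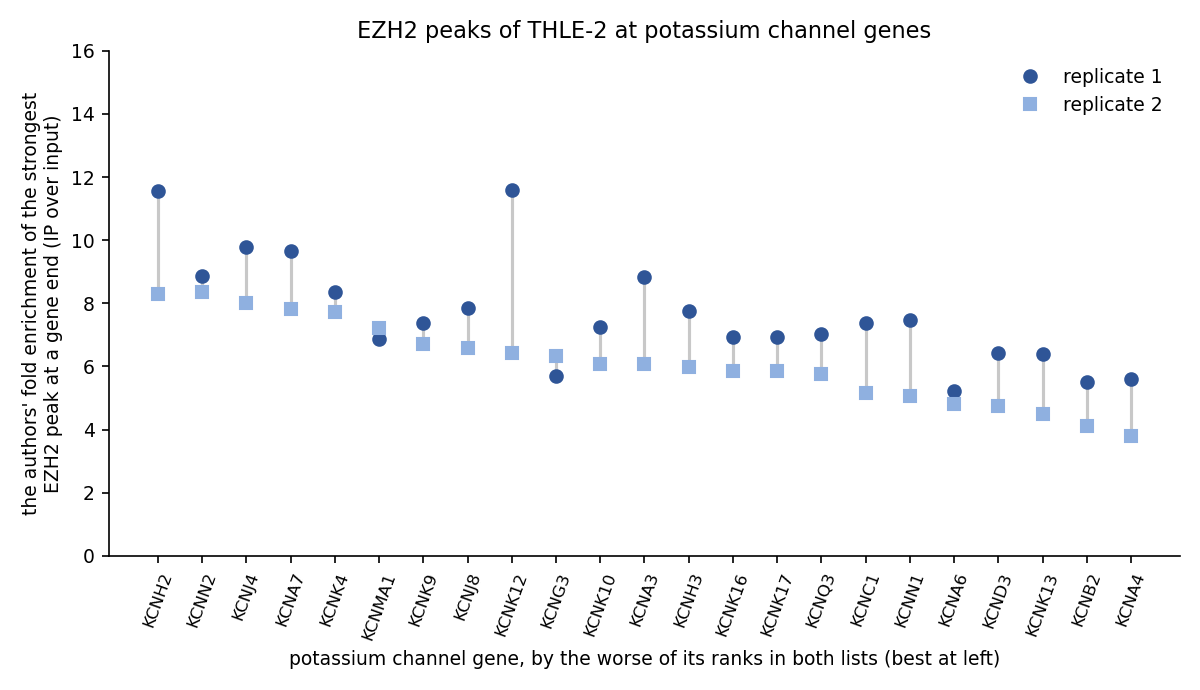
The authors' fold enrichment (IP over input) of the strongest EZH2 peak at a gene end in THLE-2 replicates 1 (circles) and 2 (squares) for the potassium channel genes called in both that are reported by name, ordered by the worse of their ranks in both lists. KCNH2, at 11.56 in replicate 1, stands at the left, and KCNA4, at 3.8 in replicate 2, at the right. Folds of lists of different length are not compared in size.

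The gene start could be told from the other end for 71 of the 94 genes, through RefSeq's promoter table. Of 18 such genes with EZH2 of both replicates at the same end, 17 had it at the start only and 1, KCNK16, at the other end only. For all protein-coding genes the counts were 492 at the start only, 139 at both ends and 60 at the other end only, of 691. Of the 20 channel genes with H3K27me3 in both replicates, 19 had it at the same end in both. The strongest peaks at the ends overlapped between replicates at 15 of the 20, so the same end need not mean the same site. Replicate 2 added many starts, so the split of ends differed between the H3K27me3 replicates. In replicate 1, of 15 channel genes, 2 had it at the start only, 12 at the other end only and 1 at both. For all genes the replicate 1 counts were 384, 525 and 292 of 1201. In replicate 2, of 36 channel genes, 17 had it at the start only, 5 at the other end only and 14 at both, and for all genes the counts were 1235, 682 and 1012 of 2929. Counted at the start alone, replicate 1 marked 3 of 71 channel genes (4.23%), against 4.27% of all genes with a known start, and replicate 2 marked 31 (43.7%), against 14.2%. The same 3 of 71 were marked there in both replicates, against 3.71% of all genes.

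**Figure D4:**
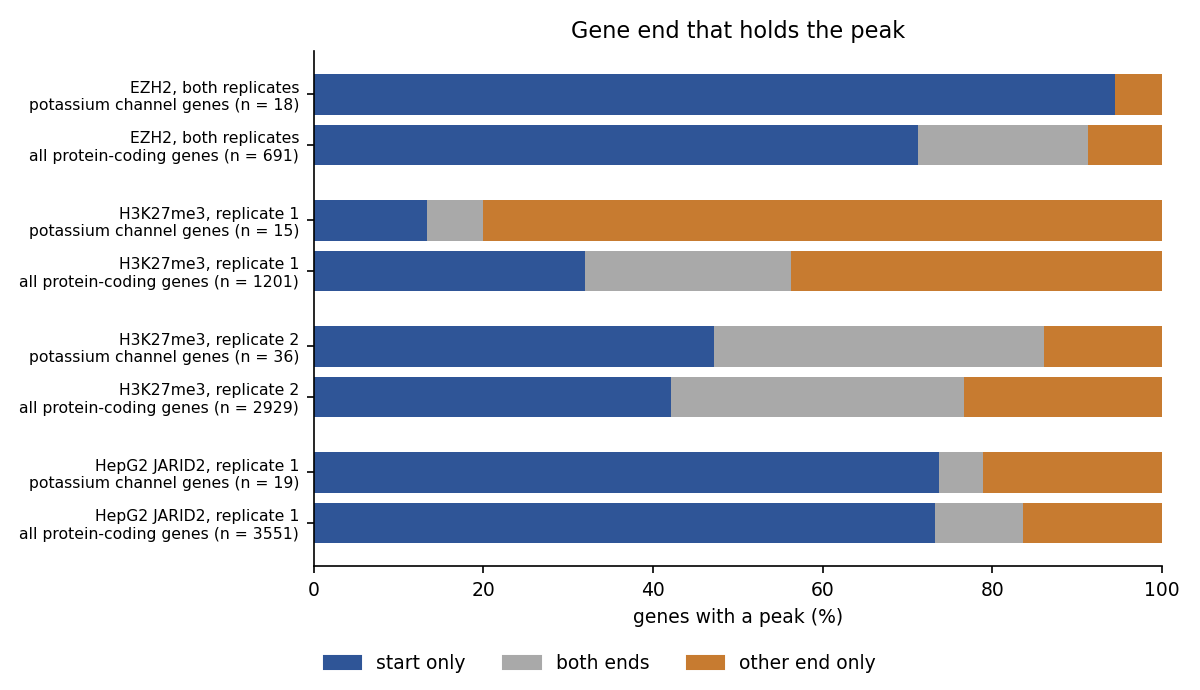
Gene end that holds the peak, as percent of genes with a peak and a known start, for potassium channel genes (upper bar of each pair) and all protein-coding genes (lower bar). EZH2 bars of the channel genes are nearly all at the start (17 of 18), while H3K27me3 is mostly at the other end only in replicate 1 (12 of 15) and at the other end only for 5 of 36 genes in replicate 2.

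The H3K27me3 replicates marked EZH2 sites very differently. In replicate 2 an H3K27me3 peak touched the EZH2 peak of 16 of the 25 genes and covered over 50% of it at all 16 in the EZH2 replicate 1 list. In replicate 1 it touched 1 of the 25 EZH2 peaks at ends of these genes (4%), which is not the strongest of its gene. The 16 are 64% of the peaks. Among EZH2 peaks of replicate 1 at all genes called in both, H3K27me3 replicate 2 touched 77.1% of 946 and replicate 1 touched 3.07%. The gap between the replicates is therefore found across the genome and not at the channel genes alone. Genes whose EZH2 peak had no H3K27me3 include KCNA6, KCNC1, KCNH3, KCNJ4, KCNK4, KCNK16 and KCNK17. KCNH2, whose EZH2 peaks were wholly covered, lay in an H3K27me3 peak of 15910 bp in replicate 2 with a fold of 6.29.

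Of the 20 genes with H3K27me3 in both replicates, 14 had no EZH2 in both, and 6 did (KCNA4, KCNA6, KCNB2, KCNJ8, KCNK16 and KCNMA1), 30% against 11.6% of all such genes. That 30% is close to the 26.6% of all 94 channel genes with EZH2 in both. The 2 did not share an end. Of 20 channel gene ends with H3K27me3 in both replicates, 0 held EZH2 in both, against 2.23% of 1569 such ends of all genes. The best ranked genes for H3K27me3 in both replicates were KCNMB1, with folds of 13.04 and 21.17, and KCNN3, with 19.79 and 12.53. The KCNMB1 peaks lay at different ends, at the other end in replicate 1 (chr5:170369307-170374354) and at the start in replicate 2 (chr5:170376672-170394525), with a second replicate 2 peak of 9.12 at the other end. KCNMB1 lies within KCNIP1, which encodes a calcium sensor that binds KCND pores. KCNIP1 had 16.41 and 11.16 at its own other end.

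KCNK18 had H3K27me3 folds of 14.97 and 12 and KCNMB2, a further beta subunit of the large-conductance channel, 11.1 and 19.8 at its start. KCNA10, of kidney and inner ear, had 11.01 and 11.57, and H3K27me3 peaks covered 100% of this short gene (chr1:110517217-110519175) in replicate 1. KCNC4 had 12.11 and 11.02 and KCNA2, a channel of axons, 9.76 and 10.47, both at the other end. These KCNC4 peaks did not overlap between replicates. KCNMA1 had 10.2 and 11.72 at its other end, and a further replicate 2 peak of 7.5 at its start, where EZH2 was. KCNJ8 had 10.14 and 9.3 at its other end, and 12.84 at its start in replicate 2. By role, replicates 1 and 2 marked 10 and 20 of 29 voltage-gated pores (34.5% and 69%) and 1 and 6 of 10 silent subunits (10% and 60%). They marked 2 and 4 of 8 calcium- or sodium-activated pores (25% and 50%) and 2 and 4 of 16 inward rectifiers (12.5% and 25%). Of 15 tandem-pore genes they marked 2 and 6 (13.3% and 40%), and of 16 auxiliary genes 4 and 7 (25% and 43.8%). All protein-coding genes had 7.7% and 19.1%, and the roles were not tested against each other. Of the 8 KCNA pores, 5 had H3K27me3 in both replicates (62.5%), against 6.75% of all protein-coding genes. All 8 had it in replicate 2, against 19.1%. At KCNA2, KCNA4 and KCNA6 the end marked in both replicates was the one opposite the start, and at KCNA10 both ends were.

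HepG2 JARID2 in replicate 1 was called at narrow sites, with 10 to 46 tags per peak and false discovery rates up to 2.21% over the 28 genes. KCNA6 had the strongest, with a fold of 19.46 at chr12:4809170-4810037, rank 156 of 15738 peaks. It was followed by KCNJ12 (12.8), KCNA3 (12.39) and KCNF1 (12.17). Next came KCNJ5 (11.93), a G-protein-gated channel of heart and adrenal, KCNA5 (11.85) of the atrium, and KCNJ11 (11.59), the pore of the beta cell's ATP-sensitive channel. KCNC1 (11.38) and KCNIP2 (11.08), an auxiliary subunit of the heart's transient outward channel, came after these. None of these sites was called in HepG2 replicate 2.

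In HepG2 replicate 1, JARID2 lay at 13 of the 25 genes with EZH2 in THLE-2 (52%) and at 15 of the 69 without it (21.7%). Among all protein-coding genes the shares were 45.4% and 21.4%. Of the 28 genes, 46.4% had EZH2 in THLE-2, against 9.84% of all genes with JARID2 in this library. At the level of gene ends, 11 of 26 channel gene ends with EZH2 (42.3%) and 39.6% of 1170 such ends of all genes held JARID2. The channel genes with EZH2 thus carry JARID2 in HepG2 about as often as other EZH2 genes do. By role, JARID2 was called in this library at 11 of 29 voltage-gated pores (37.9%), 3 of 10 silent subunits (30%) and 4 of 8 calcium- or sodium-activated pores (50%). It was called at 4 of 16 inward rectifiers (25%), 5 of 15 tandem-pore genes (33.3%) and 1 of 16 auxiliary genes (6.25%), against 22.5% of all genes, and the roles were not tested against each other. KCNH2 and KCNK10 had JARID2 inside the gene, with folds of 16.64 and 18.78, and are not among the 28.

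Few channel genes carried JARID2 in THLE-2, 4.26% and 2.13% in replicates 1 and 2, against 4.21% and 4.38% of all protein-coding genes. KCNT1, a sodium-activated channel of neurons, had folds of 7.49 and 12.1 at its start, at chr9:135701169-135701840 and chr9:135701463-135701959, with 14 and 16 tags. The false discovery rates of these peaks were high, at 17.07% and 39.2%. These peaks overlap by 378 bp and also touch the window of SOHLH1. HepG2 replicate 1 had JARID2 at the other end of KCNT1 (6.69). In THLE-2 replicate 1, KCNJ13, an inward rectifier of epithelia, had 9.53, and KCNK16 and KCNK17 share a peak of 9.6. Replicate 2 added KCNH3 (7.17). The peaks at KCNJ13, KCNK16, KCNK17 and KCNH3 had false discovery rates of 15.49% to 45.2%. The peaks at KCNK16, KCNK17 and KCNH3 touch EZH2 peaks and cover 3.78% to 19.4% of them.

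The KCNA genes lie in 2 groups of neighbours that show how marks vary over short distances. On chromosome 1, KCNA10, KCNA2 and KCNA3 lie within 158 kb (chr1:110517217-110674940). H3K27me3 peaks cover 35.7% and 40.8% of that stretch in replicates 1 and 2, and EZH2 peaks 3.52% and 3.95%, in 2 peaks at KCNA2 and KCNA3. HepG2 JARID2 has 1 peak there in replicate 1 and none in replicate 2. THLE-2 JARID2 has 5 peaks in replicate 1 and 1 in replicate 2, none of them within 2 kb of an end of these 3 genes. On chromosome 12, KCNA6, KCNA1 and KCNA5 lie within 237 kb (chr12:4809334-5046788). H3K27me3 covers 22.2% and 43% there, and EZH2 0.568% and 2.31%. HepG2 JARID2 replicate 1 has 2 peaks in this group, at KCNA6 and KCNA5, and HepG2 replicate 2 and both THLE-2 JARID2 replicates have none.

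CG content differed with EZH2. The 18 channel genes with EZH2 in both replicates and a promoter sequence had a median of 25 CGs in 250 bases and 69.6% GC. For the 47 genes with no EZH2 peak at an end, the median was 11 CGs and 62.4% GC. All protein-coding genes had medians of 21 with EZH2 in both and 17 without. For the 9 channel genes with H3K27me3 in both replicates at a gene end and no EZH2, the median was 5, against 4 for 868 such genes in all. Of these 9, only KCNA10 and KCNMB2 had H3K27me3 of both replicates over the 250 bases. The remaining genes had it in both replicates at the other end only, so this median is not that of promoters with replicated H3K27me3. The ranges overlap widely, from 1 to 46 CGs with EZH2 at a gene end and from 1 to 44 without. EZH2 peaks of both replicates lay over the 250 bases at 15 of the 18 genes, as they did at 83.6% of all such genes. They did not at KCNK16, KCNJ4 and KCNK10, which have 1, 4 and 5 CGs. The lowest number among the 15 was 7, at KCNK4, so the lower bound of 1 is not that of a promoter under EZH2.

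**Figure D5:**
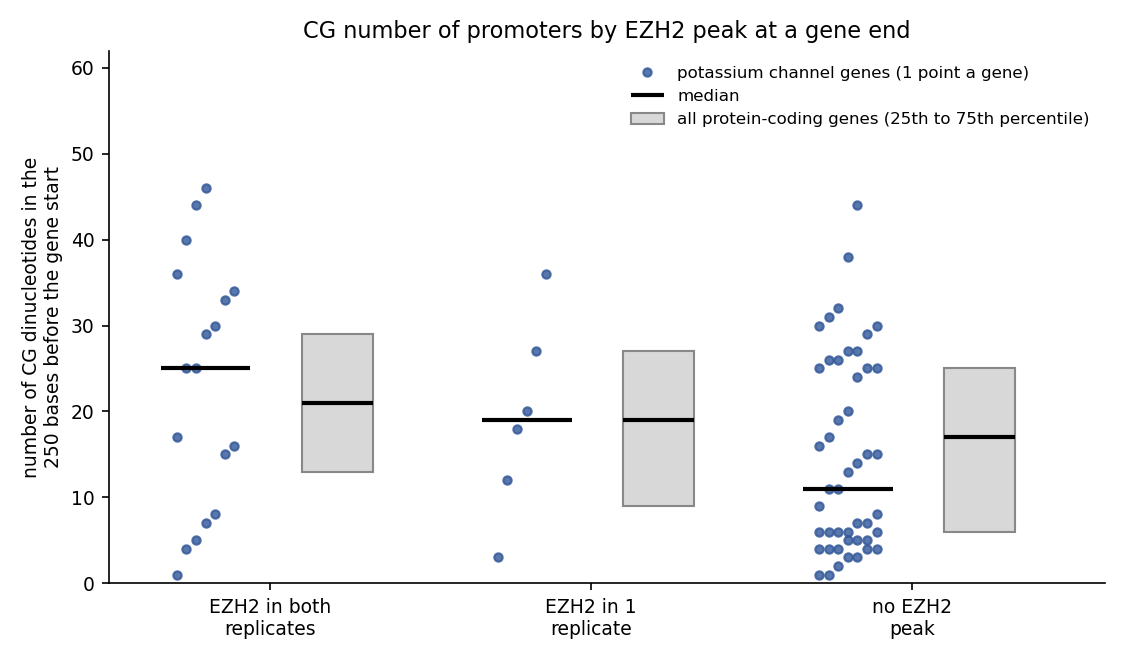
Number of CG dinucleotides in the 250 bases before the gene start, by EZH2 peak at a gene end in THLE-2. Points are potassium channel genes, black lines medians, and grey boxes the 25th to 75th percentile of all protein-coding genes. Channel genes have medians of 25 with EZH2 in both replicates, 19 with EZH2 in 1 replicate and 11 with none.

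EZH2 also lay at partners and relatives of these channels, taken from a list of 21 genes chosen for their function. It holds the sulfonylurea receptors, DPP6 and DPP10, the LRRC gamma subunits, the pacemaker (HCN) and cyclic nucleotide-gated (CNG) channels, and the TMEM potassium channels of organelles. EZH2 was called in both replicates at 5 of 21 (23.8%), against 4.88% of all genes. ABCC9, the sulfonylurea receptor that pairs with KCNJ8, had folds of 9.85 and 5.61. CNGA3 of cone photoreceptors had 8.21 and 4.56. The pacemaker gene HCN4 had 8.34 and 4.07 and HCN2 had 6 and 4.45. H3K27me3 lay at 4 of 21 in both replicates (19%), against 6.75% of all genes. HepG2 JARID2 replicate 1 lay at 4 of 21 (19%), below the 22.5% of all genes, and JARID2 lay at none in both replicates of either line.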

How the data were processed

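ChIP DNA and inputs of HepG2 and THLE-2 were sequenced, and 8 peak lists were used, 1 per IP library. Per the submitters' processing notes the tools were cutadapt and Bowtie2, with versions not given in the sources used here, and MACS 1.4.2, with GRCh38 as the build. Peaks were called from uniquely mapped reads, each IP against its matching input, at a p cutoff of 1.00e-05 with duplicate tags limited to 1 at a position, per the file headers. The authors did not pool replicates. Each deposited peak has a count of tags. It also has a score, per the file headers the log10 of the peak's p multiplied by -10. The fold enrichment, a ratio of IP to background, and the false discovery rate as a percent are the authors' own values too.

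Genes and promoter sequences came from RefSeq tables of GRCh38.p14. Peaks on chromosomes 1 to 22 and X were overlapped (at least 1 bp) with 2 kb on either side of both gene ends, in Python 3.11.15 with pandas 2.3.3 and numpy 2.4.6, and shares have Wilson 95% intervals (scipy 1.17.1). The overlap step was tested on simulated peaks. The gene table gives no strand, so start and other end are told apart only where the promoter table has the gene, 71 channel genes and 79.2% of all genes. A gene's fold enrichment is that of its strongest peak at an end and is the authors' value, used only to rank within a list. No test between groups was made, because the peak lists give calls and not counts per gene in every library. All results are counts set beside those of all protein-coding genes.

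The channel genes, the partner list and the alternatives were chosen with earlier results of these data known. Named are all genes with EZH2, THLE-2 JARID2 or HepG2 JARID2 in both replicates, those in 1 THLE-2 JARID2 replicate, partners with EZH2 in both, and the 10 best of H3K27me3 in both replicates (by the worse rank) and of HepG2 JARID2 replicate 1. Genes outside this rule were named to complete a subfamily, after their values were seen. Promoters of 23 channel genes were not used here. Some genes stay in all counts and medians but are not reported here by name.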

Additional observations from a re-analysis of the deposited data

How the results depend on the processing

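The EZH2 count of 25 channel genes stayed within 1.5 times under every alternative except the one limited to genes whose windows meet no other gene's window. There it was 15 of 66 genes, 22.7% against 6.18% of all such genes, because fewer genes enter. Without replicate 1 or replicate 2 of a target, EZH2 counts were 35 and 25, H3K27me3 counts 47 and 21 against 20 with both, HepG2 JARID2 counts 0 and 28 against 0, and THLE-2 JARID2 counts 2 and 4 against 1. Taking the whole gene with 2 kb on either side gave 38 genes for H3K27me3 (40.4%, against 14.4% of all genes), 8 for HepG2 JARID2 (8.51%, against 4.13%) and 8 for THLE-2 JARID2 (8.51%, against 4.02%). The shares of all genes were higher under this setting too. With the start alone, H3K27me3 fell to 3 of 71 genes, 4.23% against 3.71% of all genes. With equal lists of the 2081 best peaks by score, H3K27me3 fell to 1 gene (1.06%, against 0.36% of all genes) and THLE-2 JARID2 to 0 (against 0.12%). THLE-2 JARID2 was also 0 at a score of at least 100 (against 0.01% of all genes) and with lone windows (against 0.215%). The shares of all genes were thus low under these settings too. The cause of these last shifts was not tested. Depth differs between targets, so counts of different targets are not compared. No paired analysis was possible because no result comes from a test between groups.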

Other observations

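Long non-coding RNA genes named after potassium channel genes were looked at after the protein-coding genes. Of 28 such genes, 8 (28.6%) had an H3K27me3 peak at a gene end in both THLE-2 replicates, against 11.8% of 18177 long non-coding RNA genes. They are KCNA6-AS1, KCND3-AS1, KCNIP1-AS1, KCNIP1-OT1, KCNJ6-AS1, KCNMA1-AS1, KCNQ5-AS1 and KCNQ5-IT1. EZH2 lay at 1 of them in both replicates, KCNK4-CATSPERZ (3.57%), against 2.27%. In HepG2 replicate 1, JARID2 lay at 5 of 28 (17.9%), against 9.52%. How many of these peaks are shared with the channel gene itself was not tested.

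Some channel genes had JARID2 inside the gene and at no gene end, in both replicates of a line. In HepG2 they are KCNAB1, KCND3, KCNH7, KCNIP4, KCNK2 and KCNN2, 6 genes (6.38%, against 2.36% of all protein-coding genes). In THLE-2 they are KCNH1, KCNH7, KCNIP1, KCNIP3, KCNIP4, KCNN2 and KCNQ5, 7 genes (7.45%, against 2.8%). Gene length, which sets how much of the genome a gene spans, was not accounted for. Peaks of both replicates lie inside the same gene and need not overlap.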
